A study of Mus musculus with 6 samples.

Results

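The genes described here code for the Slc25a carriers, the proteins that exchange metabolites across the inner membrane of the mitochondrion, and, for comparison, for the Timm and Tomm proteins, which bring such carriers and other proteins into the organelle. Members were taken by gene symbol alone, as probes whose platform symbol starts with Slc25a, or with Timm or Tomm followed by a digit. This gave 34 Slc25a genes on 36 probes and 21 Timm and Tomm genes on 23 probes, out of 13409 genes named by a single symbol on the array. All 55 had enough values to be tested, as did 12812 genes of the whole array.

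In male C57BL/6J mice, 12 weeks old, the epididymal white fat pad was compared between animals injected with CL-316,243 at 1 mg per kg body weight and animals injected with saline. CL-316,243 is an agonist of the beta3-adrenergic receptor, which in fat cells raises cyclic AMP and starts lipolysis. Tissue was taken 3 hr after the injection. RNA of 6 mice per treatment went into 1 pool per treatment, and both pools were hybridised together on each of 6 two-colour arrays, with the CL-316,243 pool in channel 1 on arrays 1, 2 and 3 and in channel 2 on arrays 4, 5 and 6. The agonist's number is written differently in the free text of the labels, and the spelling of the titles is used here. Because the arrays repeat 1 pair of pools, they are 1 biological replicate: every p-value measures spread between arrays and compares 2 pools, and the spread between mice is unknown.

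Each value is a log ratio of one pool over the other, and 0 is equality. It is read here as log2, so 1 stands for a 2-fold difference. That base is an assumption, and every fold difference below depends on it. The sources used here do not name the numerator pool. All titles name the CL-316,243 mice, and on that basis alone the CL-316,243 pool is taken as the likely numerator. Among 91 probes whose mean reached 1 in size in both orientations, 90 kept their sign from one orientation to the other. That count bears on whether all arrays run the same way and not on which pool is the numerator, and it is raised by placing the columns on their agreement, as described next. "Higher" below means higher in the numerator pool, and each direction turns around if that pool was saline. Had the ratios not been brought to one direction before deposit, the mean over orientations would hold the dye effect in place of the difference between pools.

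A further point touches every value. Each deposited column lacks values solely at its end (1 row for array 6, 724 for array 2), and read row by row the arrays were uncorrelated (mean rank correlation 0.004 between arrays of one orientation). Each column was therefore placed on the probe numbers by its agreement with the other arrays, which placed 65.1% of probes on array 2 and 92.2% to 99.8% on the others. After placement the mean rank correlation was 0.283 within an orientation and 0.109 across orientations. Placement by agreement also raises these correlations. It can likewise lower the spread between arrays, on which every p-value, call and same-sign count below rests, by an amount not given here. Without placement no gene of the array was called by limma after adjustment, and 489 of 13409 had an unadjusted p under 0.05. With placement 396 of 12812 were called and 2371 had an unadjusted p under 0.05. No intensities were used here, so the presence of fat cell transcripts could not be checked by level, and fewer cells of a type cannot be told apart from less RNA per cell.

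Slc25a proteins share a fold of membrane-spanning helices and carry nucleotides, phosphate, carboxylates, acylcarnitines, amino acids, iron and protons. In fat cells they connect fatty acid oxidation, which needs acylcarnitine import, with lipid synthesis, which needs citrate export. They are made in the cytosol: the outer membrane complex TOM takes them in, the small Tim proteins Timm9 and Timm10 escort them through the intermembrane space, and the TIM22 complex inserts them in the inner membrane. Proteins with a cleavable presequence take the TIM23 route instead.

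Among the 55 genes, 3 passed limma's test with Benjamini-Hochberg adjustment over all 12812 genes at 0.05, all of them higher: Slc25a33, Timm10 and Timm8a1. Their share was 5.45%, beside 3.09% of all genes. The promoters of these 3 are shown, since these members passed the test and since the agonist works through cyclic AMP. The sequences are RefSeq's on GRCm38.p6 and run 5′ to 3′ on the gene's strand over the 250 bases before the transcript start. Capitals mark 2 short motifs searched on both strands. One is CACGTG, the core E-box, which reads the same on the other strand. The other is TGACG, the half-site of the cyclic AMP response element, which on the other strand reads CGTCA. The reason given above, that the agonist works through cyclic AMP, covers TGACG and not CACGTG.
Slc25a33, chr4:149774268-149774517, minus strand: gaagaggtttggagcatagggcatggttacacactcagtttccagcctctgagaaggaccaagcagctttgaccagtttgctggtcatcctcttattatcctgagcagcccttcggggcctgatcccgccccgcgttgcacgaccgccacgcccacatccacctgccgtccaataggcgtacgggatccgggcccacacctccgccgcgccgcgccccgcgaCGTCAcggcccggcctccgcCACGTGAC
Timm10, chr2:84826771-84827020, plus strand: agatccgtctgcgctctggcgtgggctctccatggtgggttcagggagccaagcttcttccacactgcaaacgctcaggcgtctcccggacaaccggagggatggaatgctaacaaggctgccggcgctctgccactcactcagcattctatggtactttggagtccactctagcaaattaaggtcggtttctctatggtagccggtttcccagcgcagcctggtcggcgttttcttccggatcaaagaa
Timm8a1, chrX:134541671-134541920, minus strand: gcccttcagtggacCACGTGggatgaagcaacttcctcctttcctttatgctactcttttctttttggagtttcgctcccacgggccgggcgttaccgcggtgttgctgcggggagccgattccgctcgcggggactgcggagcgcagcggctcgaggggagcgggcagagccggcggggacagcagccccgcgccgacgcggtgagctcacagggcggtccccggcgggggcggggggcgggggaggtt

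In Slc25a33 an E-box began 8 bases before the start, with a TGACG that overlaps it and crosses the start, and a CGTCA lay 28 bases before the start. Timm8a1 had an E-box 236 bases before the start. Within the first 50 bases of the transcript, Timm10 had an E-box from base 29 and Timm8a1 one from base 25, the latter next to a CGTCA from base 14. Those stretches of 24 bases are shown for their motifs.
Timm10, chr2:84827037-84827060, plus strand: ccggaagtgaccCACGTGcttctt
Timm8a1, chrX:134541635-134541658, minus strand: cCGTCAcccagaCACGTGaaggtc

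Over windows of 300 bases (250 before and 50 after a start), CACGTG was in 3 of 3 windows of these genes, against 2349 of 32851 windows in the whole table (7.2%). It was in 8 of 36 windows of Slc25a genes (22.2%) and 5 of 21 of Timm and Tomm genes (23.8%), for 27 and 19 genes with a listed promoter. The half-site TGACG was in 2 of the 3, in 10 of 36 Slc25a windows (27.8%), 9 of 21 Timm and Tomm windows (42.9%) and 20.8% of all. The full element TGACGTCA was in none of the 3, in 2 of 36 Slc25a windows (5.6%), in 0 of 21 Timm and Tomm windows and in 1.8% of all windows. The core E-box was in windows of 7 Slc25a genes and 5 Timm and Tomm genes, so members that did not pass the test also have it. The 3 genes were picked by their result in these data, and a difference in motif share was not tested. A match of letters is a description and not a binding site.

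Among Slc25a genes 1 of 34 passed (2.94%), against a background of 3.09% of all genes in either direction, so the share of carriers that passed was near that of the array. Higher genes made up 1.90% of all genes and lower genes 1.19%. At an unadjusted p under 0.05 there were 11 carriers, 8 higher and 3 lower (32.4%), where the array had 18.5%, made up of 8.95% higher and 9.55% lower. The median log2 ratio of the 34 was -0.05, beside -0.013 for all genes, and 13 of 34 were positive (38.2%, all genes 47.5%). For 7 carriers every measured array lay on one side of 0 (20.6%, all genes 13.9%), 4 positive and 3 negative, and 21 of 34 were under 0.3 in size.

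**Figure D1:**
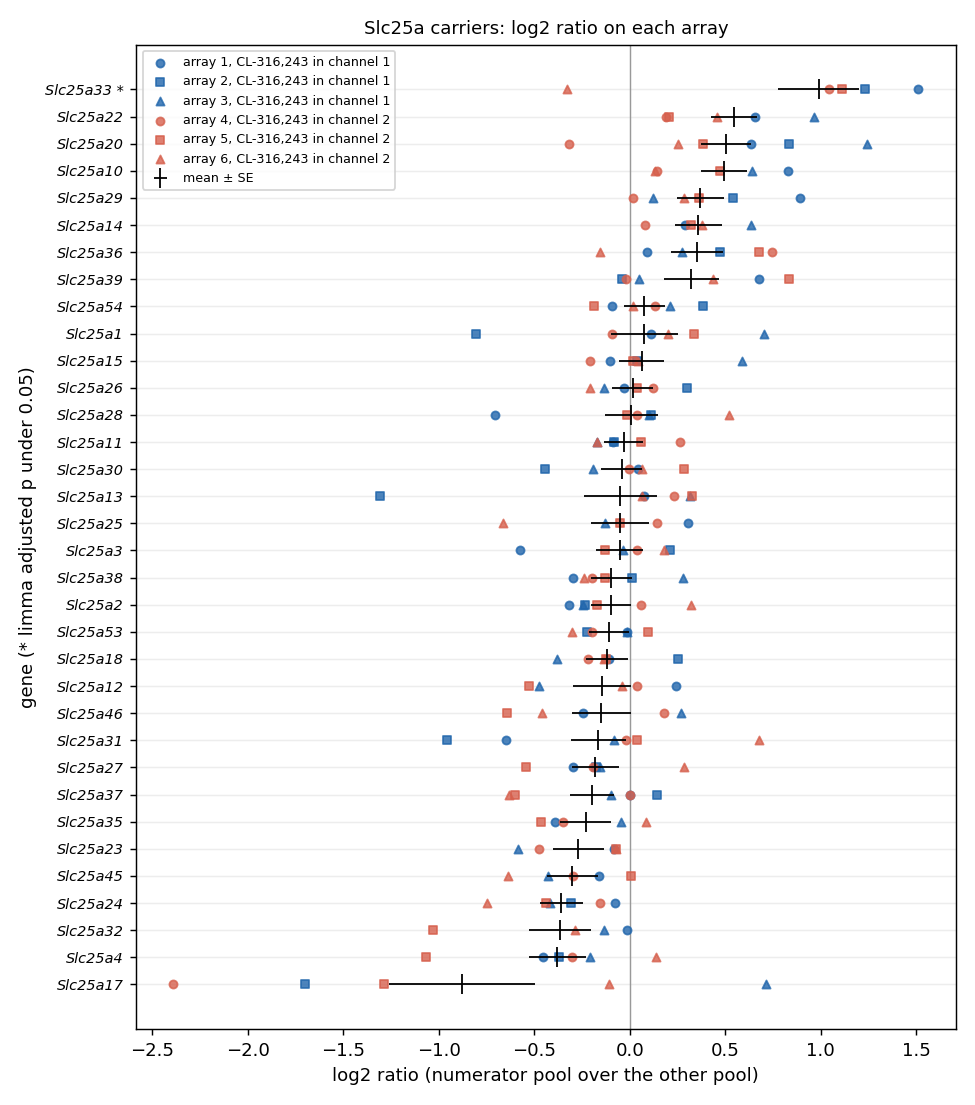
Log2 ratio (x axis) of each of the 34 Slc25a genes (rows, ordered by mean) on each array; blue marks are arrays 1 to 3, red marks arrays 4 to 6, and the black tick with its bar is limma's mean ± SE. Slc25a33 lies highest at 0.99 with array 6 apart at -0.33, Slc25a17 lies lowest with marks from -2.39 to 0.71, and most rows straddle 0.

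The nucleotide and cofactor carriers held both ends of the family. Slc25a33, a pyrimidine nucleotide carrier that feeds mitochondrial DNA and RNA synthesis, had log2 ratios of 1.51 on array 1, 1.23 on array 2, 1.04 on array 4, 1.11 on array 5 and -0.33 on array 6, with no placed value on array 3. Of these 5 arrays 4 were above 1 and array 6 stood apart on the other side of 0. The mean was 0.99 ± 0.21 (SE, 5 arrays), a 1.98-fold higher level, with limma's adjusted p = 0.0463. The orientation means were 1.37 and 0.61, both positive, and the orientation term was not called (limma's adjusted p = 0.542).

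That call was close to the threshold. Leaving out array 4 gave 0.88 (limma's adjusted p = 0.124) and leaving out array 5 gave 0.86 (limma's adjusted p = 0.156), while leaving out array 6 gave 1.22 (limma's adjusted p = 0.00642). Slc25a33 was called in 8 of 14 alternatives that used placed values. All 14 gave a positive ratio, from 0.61 to 1.37, and limma's adjusted p ran from 0.00642 to 0.271. Some of these calls left the ratio at 0.99, such as the one without array 3, which holds no value of this gene. Where the ratio moved, it was called with a posterior of at least 0.8 (1.03), array weights (1.12) and without array 6, and in no other alternative. Fits without array 1 or array 2 could not test it.

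Slc25a36, the other pyrimidine nucleotide carrier, was positive on 5 of 6 arrays with a mean of 0.35 ± 0.14 (SE) and did not pass (limma's adjusted p = 0.215). The difference between both pyrimidine carriers was not tested.

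Slc25a17, which lies in the membrane of the peroxisome and carries coenzyme A and related cofactors, had the largest negative mean. Its log2 ratios were -1.70 on array 2, 0.71 on array 3, -2.39 on array 4, -1.29 on array 5 and -0.11 on array 6. Arrays of both orientations lay far apart, with an SD of 1.25. The mean of -0.88 ± 0.38 (SE, 5 arrays) did not pass (limma's adjusted p = 0.268).

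Slc25a4, the ADP/ATP carrier of heart and muscle type that exports new ATP, read -0.46, -0.37, -0.21, -0.31, -1.07 and 0.14 on arrays 1 to 6. It was negative on 5 of 6 arrays, with array 5 lowest, and its mean of -0.38 ± 0.15 (SE) did not pass (limma's adjusted p = 0.217). Without array 5 its mean was -0.21. Slc25a31, the ADP/ATP carrier of testis, was at -0.17 ± 0.14 (SE), with a mean of -0.56 in one orientation and 0.23 in the other. Slc25a5, the common ADP/ATP carrier of most tissues, has no named probe here.

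None of the 3 carriers of ATP-Mg and phosphate, which respond to calcium and set the adenine nucleotide content of the matrix, passed. Slc25a24 was measured by 2 probes with means of -0.34 and -0.39. Averaged over probes it read -0.079, -0.31, -0.42, -0.16, -0.44 and -0.75 on arrays 1 to 6, negative on all. On array 1 its probes differed in sign (0.266 and -0.425). Its mean was -0.36 ± 0.11 (SE; limma's adjusted p = 0.13). Slc25a23 was negative on 5 of 5 arrays at -0.27 ± 0.13 (SE), and Slc25a25 lay near 0 at -0.05 ± 0.15 (SE).

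Slc25a32, a carrier of folate and flavin cofactors, read -0.018, -0.14, -1.03 and -0.28 on arrays 1, 3, 5 and 6. All 4 were negative, and array 5 set most of the mean of -0.37 ± 0.16 (SE; limma's adjusted p = 0.28). Slc25a26, the S-adenosylmethionine carrier, was measured by 2 probes that disagreed, at 0.28 and -0.25 over 6 arrays each, so its mean of 0.015 does not describe either probe. Over the 10 nucleotide and cofactor carriers, 1 passed (10%, all genes 3.09%), 3 ratios were positive (30%, all genes 47.5%) and the median was -0.22.

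Carriers of carboxylates, phosphate and acylcarnitine numbered 5, and none passed. At an unadjusted p under 0.05 there were 2 (40%, all genes 18.5%), Slc25a20 and Slc25a10, both higher. Slc25a20, the carnitine/acylcarnitine carrier that brings long-chain fatty acids to oxidation, read 0.64, 0.83, 1.24, -0.32, 0.38 and 0.25 on arrays 1 to 6. The 3 arrays with the CL-316,243 pool in channel 1 lay above the 3 others without overlap, at means of 0.90 and 0.11. The mean over both was 0.50 ± 0.13 (SE; limma's adjusted p = 0.0726), and the orientation term had an unadjusted limma p of 0.0126 and an adjusted p of 0.393.

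Slc25a10, the dicarboxylate carrier that exchanges malate and succinate for phosphate, read 0.83, 0.64, 0.14, 0.47 and 0.13 on arrays 1, 3, 4, 5 and 6. All 5 were positive, and again the channel 1 arrays were the higher. The mean was 0.49 ± 0.12 (SE; limma's adjusted p = 0.0696). A placement without the members' own spots left Slc25a10 out of the fit, with 33 of 34 carriers tested. The placed values of Slc25a10 thus rest in part on the members' own agreement between arrays.

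The other 3 of this group lay near 0. Slc25a1, the citrate carrier that supplies acetyl units for lipid synthesis, read 0.11, -0.81, 0.70, -0.092, 0.33 and 0.20 on arrays 1 to 6, with arrays 2 and 3 at opposite ends. Its mean was 0.08 ± 0.17 (SE; limma's adjusted p = 0.865). Slc25a3, the phosphate carrier that serves ATP synthesis, read -0.57, 0.21, -0.034, 0.035, -0.13 and 0.18, with 3 arrays on each side of 0. Its mean was -0.05 ± 0.12 (SE; limma's adjusted p = 0.867). Slc25a11, the oxoglutarate carrier of the malate-aspartate shuttle, read -0.089, -0.081, -0.17, 0.27, 0.06 and -0.17. It stayed within 0.3 of 0 on every array, with a mean of -0.03 ± 0.10 (SE; limma's adjusted p = 0.909).

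None of the 8 amino acid carriers passed, and 2 had an unadjusted p under 0.05 (25%, all genes 18.5%). The median of the 8 was -0.07. The closest to the threshold was Slc25a22, a glutamate carrier, which read 0.66, 0.96, 0.19, 0.20 and 0.46 on arrays 1, 3, 4, 5 and 6. It was positive on all 5, and the channel 1 arrays lay above the channel 2 arrays without overlap, at means of 0.81 and 0.28. The orientation term was not called (limma's adjusted p = 0.491). The mean over both was 0.55 ± 0.12 (SE, 5 arrays), a 1.46-fold difference just outside the threshold (limma's adjusted p = 0.0507). It was called in 4 of 14 alternatives, with limma's adjusted p from 0.0247 to 0.359; leaving out array 2, which holds no value of this gene, gave the same ratio and an adjusted p of 0.0439.

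Slc25a29, a carrier of basic amino acids, read 0.89, 0.54, 0.12, 0.015, 0.36 and 0.28 on arrays 1 to 6. All were positive, though array 4 was close to 0, and the mean was 0.37 ± 0.12 (SE; limma's adjusted p = 0.147). The aspartate/glutamate carriers of the malate-aspartate shuttle did not pass: Slc25a12 was at -0.15 ± 0.15 (SE) and Slc25a13 at -0.05 ± 0.19 (SE). Slc25a13 was positive on 5 of 6 arrays, and array 2 alone, at -1.31, turned its mean negative. The ornithine carriers Slc25a15 (0.06) and Slc25a2 (-0.10), the glutamate carrier Slc25a18 (-0.12) and the glycine carrier Slc25a38 (-0.10) all had mean log2 ratios close to 0.

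Of the 3 relatives of the uncoupling proteins, Slc25a14 read 0.29, 0.63, 0.082, 0.32 and 0.38 on arrays 1, 3, 4, 5 and 6. It was positive on all 5 and ranged little, with a mean of 0.36 ± 0.12 (SE; limma's adjusted p = 0.162). Slc25a27 and Slc25a30 had mean log2 ratios of -0.18 and -0.04. Among 3 carriers of iron and glutathione, Slc25a39, which brings glutathione into the matrix, was at 0.32 ± 0.14 (SE; limma's adjusted p = 0.266). The mitoferrins Slc25a37 and Slc25a28, which import iron, were at -0.20 ± 0.12 (SE) and 0.01 ± 0.14 (SE). The other 5 members, Slc25a35, Slc25a45, Slc25a46, Slc25a53 and Slc25a54, ranged from -0.30 to 0.08, and none had an unadjusted p under 0.05.

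Of the 21 Timm and Tomm genes, 2 passed (9.52%, background 3.09%), both higher. At an unadjusted p under 0.05 there were 7, 5 higher and 2 lower (33.3%, all genes 18.5%). Their median log2 ratio was 0.05, 12 of 21 were positive, and 6 kept to one side of 0 on all their arrays, 3 on each side. The difference between these genes and the carriers was not tested.

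**Figure D2:**
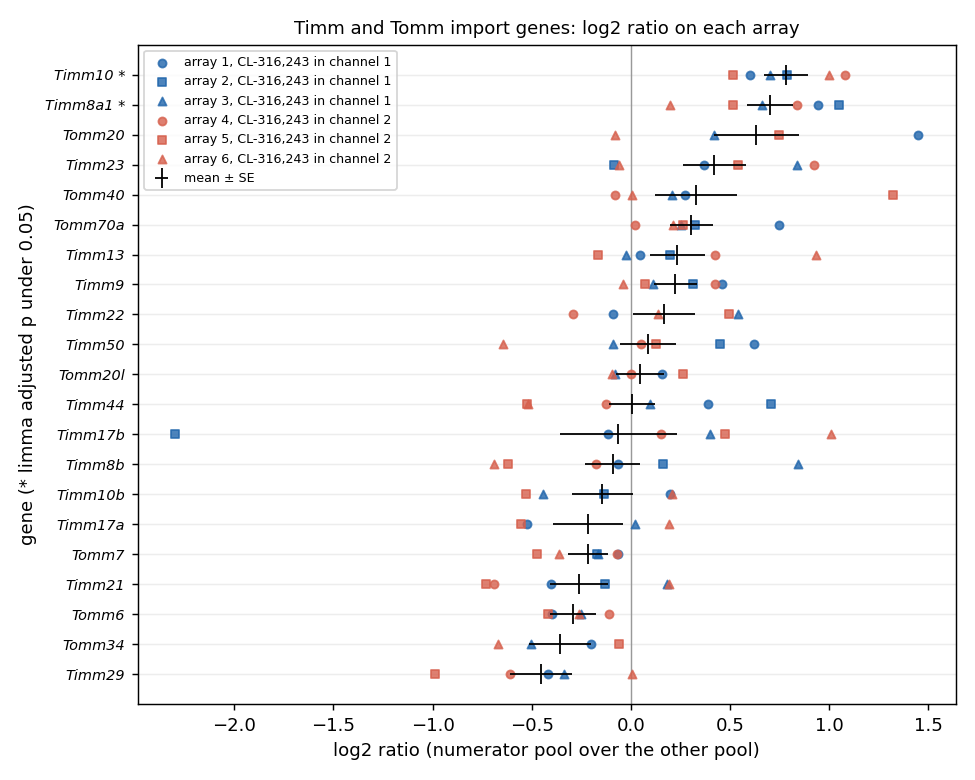
Log2 ratio (x axis) of each of the 21 Timm and Tomm genes (rows, ordered by mean) on each array, with blue marks for arrays 1 to 3, red marks for arrays 4 to 6, and limma's mean ± SE in black. All 6 marks of Timm10 and of Timm8a1 lie above 0, while Timm17b spreads from -2.30 on array 2 to 1.01 on array 6.

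Both genes that passed code for small Tim proteins of the intermembrane space. Timm10, which with Timm9 forms the chaperone that hands Slc25a carriers to TIM22, read 0.60, 0.79, 0.70, 1.08, 0.51 and 1.00 on arrays 1 to 6. All arrays were above 0.5, and arrays of the 2 orientations overlapped. The mean was 0.78 ± 0.11 (SE), 1.72-fold higher, with limma's adjusted p = 0.00642. It was called in 16 of 17 alternatives that used placed values, with ratios from 0.70 to 0.87 and limma's adjusted p from 0.00441 to 0.145. The exception was the fit of the channel 1 arrays alone. A placement without the members' own spots gave 0.76 (limma's adjusted p = 0.0193), the same ratio as leaving out array 2. The value of Timm10 on array 2 thus rests in part on the members' own agreement between arrays.

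Timm8a1, which with Timm13 escorts the precursor of Timm23, read 0.94, 1.05, 0.66, 0.84, 0.51 and 0.20 on arrays 1 to 6. All arrays were positive, with array 6 lowest. The mean was 0.70 ± 0.12 (SE), 1.62-fold higher (limma's adjusted p = 0.0131). The call was lost without array 1 (0.69, limma's adjusted p = 0.052) and without array 5 (0.70, limma's adjusted p = 0.0722), with the ratio little moved. Over 17 alternatives it was called in 13, with limma's adjusted p from 0.00386 to 0.153.

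The partners of these 2 proteins did not pass. Timm9 was measured by 2 probes with means of 0.30 and 0.12 and had a mean of 0.22 ± 0.11 (SE, limma's adjusted p = 0.31). Its probes differed in sign on array 5 (0.456 and -0.309) and on array 6 (0.305 and -0.383). Timm13 was positive on 4 of 6 arrays at 0.24 ± 0.14 (SE; limma's adjusted p = 0.42). Timm8b, a relative of Timm8a1, was at -0.09 ± 0.14 (SE), with orientation means of 0.31 and -0.49. The difference between each gene and its partner was not tested.

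Of the TIM22 complex itself, Timm22, the channel, was at 0.17 ± 0.16 (SE), and Timm10b at -0.14 ± 0.15 (SE). Timm29, a further subunit of that complex, read -0.42, -0.34, -0.61, -0.99 and 0.0039 on arrays 1, 3, 4, 5 and 6. It was negative on 4 of 5 arrays and at 0 on array 6, with a mean of -0.45 ± 0.16 (SE; limma's adjusted p = 0.168). Among the 8 genes of the TIM22 route, 2 passed (25%, all genes 3.09%), 5 ratios were positive (62.5%, all genes 47.5%) and the median was 0.20. The group is small, and a difference in share was not tested.

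None of the 6 genes of the TIM23 complex passed, 1 had an unadjusted p under 0.05 (16.7%, all genes 18.5%), and their median was -0.03. Timm23, its channel, read 0.37, -0.084, 0.84, 0.92, 0.54 and -0.06 on arrays 1 to 6. It was above 0.3 on 4 arrays and just below 0 on arrays 2 and 6, with a mean of 0.42 ± 0.16 (SE; limma's adjusted p = 0.194). Timm17a and Timm17b, the alternative partner subunits of the channel, were at -0.22 ± 0.18 (SE) and -0.06 ± 0.29 (SE). Timm44, which anchors the import motor, had means of 0.40 and -0.39 in the 2 orientations, an orientation difference with limma's unadjusted p of 0.00781 and adjusted p of 0.387. Timm50, the receptor, was at 0.08 ± 0.14 (SE), and Timm21 was at -0.26 ± 0.15 (SE).

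None of the 7 genes of the outer membrane complex and its relatives passed, and 3 had an unadjusted p under 0.05 (42.9%, all genes 18.5%). Tomm20, the receptor for presequences, read 1.45, 0.42, 0.75 and -0.079 on arrays 1, 3, 5 and 6. The 4 values covered a wide range, and the mean of 0.63 ± 0.21 (SE) did not pass (limma's adjusted p = 0.171). Tomm70a, the receptor that recognises Slc25a carriers, was measured by 2 probes with means of 0.21 and 0.42. Averaged over probes it was positive on 6 of 6 arrays at 0.30 ± 0.11 (SE, limma's adjusted p = 0.174). The probes differed in sign on array 4 (-0.501 and 0.545) and on array 6 (0.612 and -0.182). Tomm40, the pore, was at 0.33 ± 0.21 (SE), with array 5 at 1.32 and the other 4 arrays at or below 0.27.

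The small subunits lay on the other side of 0. Tomm6 was negative on 5 of 5 arrays at -0.29 ± 0.12 (SE; limma's adjusted p = 0.227) and Tomm7 on 6 of 6 at -0.22 ± 0.10 (SE; limma's adjusted p = 0.293). Tomm34, a cytosolic co-chaperone, read -0.20, -0.51, -0.058 and -0.67 on arrays 1, 3, 5 and 6, negative on all 4. Its mean was -0.36 ± 0.16 (SE; limma's adjusted p = 0.276). Tomm20l lay at 0.05 ± 0.12 (SE).

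**Figure D3:**
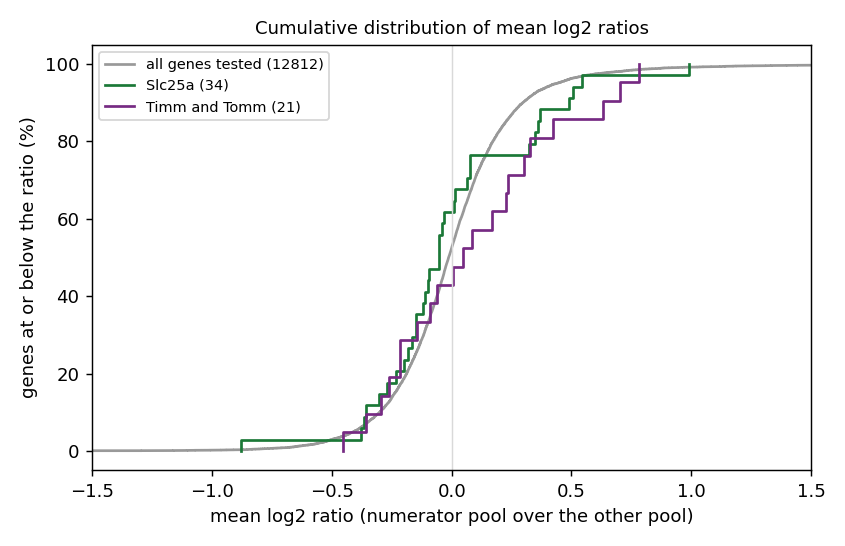
Share of genes (y axis, %) at or below each mean log2 ratio (x axis) for all 12812 genes tested (grey), 34 Slc25a genes (green) and 21 Timm and Tomm genes (purple). The medians are -0.013, -0.05 and 0.05, and the Slc25a curve crosses the grey one, above it near 0 and below it further right; the x axis is limited to ±1.5.

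Both orientations can be read separately, since a dye effect that the normalisation left would turn its sign relative to the pools. Of the 55 members 38 had means of one sign in both orientations, 21 of 34 Slc25a and 17 of 21 Timm and Tomm genes, where all genes gave 54.4%. For 19 members both means were positive and for 19 both were negative. The orientation term passed for none of the 55 (limma's lowest adjusted p = 0.387), for 4 at an unadjusted p under 0.05, and for 1 of all genes (0.00781%). At an unadjusted p under 0.05, 10.6% of all genes had an orientation difference.

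**Figure D4:**
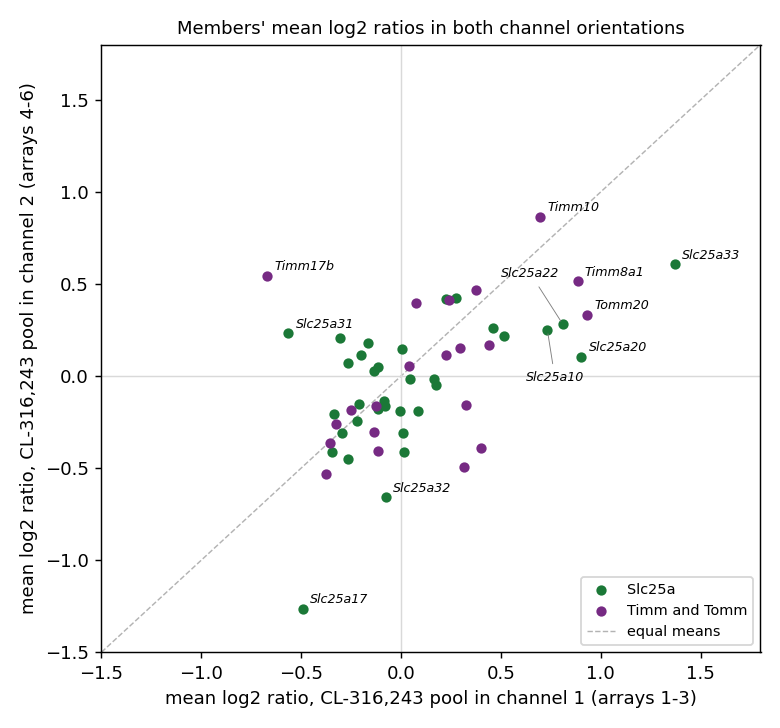
Mean log2 ratio of each member over the arrays with the CL-316,243 pool in channel 1 (x axis) and in channel 2 (y axis), green for Slc25a and purple for Timm and Tomm genes; the dashed line marks equal means. Slc25a33, Timm10 and Timm8a1 lie at the upper right, Slc25a17 in the lower left, and Timm17b and Slc25a31 in the upper left with opposite signs.

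Genes that work beside the members were read from a list of 44, of which 35 were tested and 1 passed (2.86%, all genes 3.09%), with a median log2 ratio of 0.0035. Of 13 other genes of protein import, such as Samm50 and the chaperones Hspa9 and Hspe1, none passed. At an unadjusted p under 0.05 there were 4, 3 higher and 1 lower (30.8%, all genes 18.5%). Of the 13 ratios 7 were positive, and the median was 0.047. Dnajc19 was the lower gene, at -0.43 ± 0.15 (SE, limma's adjusted p = 0.165). Hspa9 and Hspe1 were positive on 6 of 6 arrays at 0.26 ± 0.10 (SE) and 0.29 ± 0.11 (SE). Of 10 tested genes for further family members and channels none passed either, with 3 at an unadjusted p under 0.05, all higher (30%, all genes 18.5%). Ucp1, the uncoupling protein of brown fat and a member of the same family under another symbol, read 0.62, 0.78, 0.26 and 0.32 on arrays 1, 3, 5 and 6. Those 4 were positive, with a mean of 0.49 ± 0.13 (SE; limma's adjusted p = 0.0968). Ucp3 was at 0.48 ± 0.18 (SE) and Vdac2, a pore of the outer membrane, at 0.47 ± 0.14 (SE; limma's adjusted p = 0.116).

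The gene that passed among the 12 enzymes of the shuttles and of carnitine transfer was Got1, the cytosolic aspartate aminotransferase of the malate-aspartate shuttle. It read 1.38, 1.61, 0.60, 1.88, 1.14 and 0.34 on arrays 1 to 6, positive on all. The mean was 1.16 ± 0.20 (SE), 2.23-fold higher (limma's adjusted p = 0.0146). Of the 12 enzymes 3 had a positive ratio (25%, all genes 47.5%), and their median was -0.077. The mitochondrial counterpart of Got1, Got2, was at -0.08 ± 0.11 (SE), and the carriers of the same shuttle, Slc25a11, Slc25a12 and Slc25a13, were at -0.03, -0.15 and -0.05. Mdh1 and Mdh2, also on this list, were at -0.51 ± 0.24 (SE, 4 arrays, limma's adjusted p = 0.309) and -0.20 ± 0.13 (SE). Gpd1, the cytosolic glycerol-3-phosphate dehydrogenase, was positive on 6 of 6 arrays at 0.53 ± 0.14 (SE; limma's adjusted p = 0.0726). Cpt1a, Cpt1b and Cpt2, which make and use acylcarnitines on either side of Slc25a20, were at -0.15, -0.06 and -0.10.

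Markers of other tissues were not equal in both pools. In the list of epididymis and seminal vesicle markers, the 5 tested genes were all of seminal vesicle: Svs2, Svs4, Svs5, Svs6 and Pate4. All 5 passed and were lower, with mean log2 ratios from -5.47 (Svs5) to -1.16 (Svs4). Their median was -3.36, -4.16, -1.84, -3.76, -2.89 and -1.75 on arrays 1 to 6. Lcn5, an epididymis marker with too few values to be tested, was not low, at -0.19, 1.29, 0.14 and 0.27 on arrays 3, 4, 5 and 6. Of 33 tested markers of adipocytes, leukocytes, endothelium, brown fat, muscle and testis, none passed limma's adjusted threshold and 11 had an unadjusted p under 0.05. Of the 8 adipocyte markers 6 had an unadjusted limma p under 0.05 (75%, all genes 18.5%), 5 higher and 1 lower. They ran from -0.47 (Pparg) to 1.17 (Cidec) with a median of 0.47, and their median by array was 0.37, 0.40, 1.58, 0.098, 0.061 and 0.18 on arrays 1 to 6, highest on array 3. The 4 testis markers, one of which is Slc25a31, ran from -0.65 to -0.12. The part of such tissue differences in the members' ratios was not tested.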

How the data were processed

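RNA of 2 pools was measured on 6 two-colour spotted arrays. Per the labels, the authors quantified the scans with QuantArray, applied a uniform scale factor between dyes and LOWESS in their own program, and deposited log ratios, taken here as log2; the sources used here do not give the log base, the dye of each channel, the numerator or how spots were dropped. Depth has no meaning for arrays, and their number limits the precision. Each slide has its own lot number, so no batch could be tested.

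A hidden Markov model that lets a column skip, but never gain, spots assigned its values to probe numbers 1 to 19200 (Python 3.11.15, numba 0.67.0). Normal scores were clipped at 3, 3 rounds were run from 31 starts, the start with the highest gain in log-likelihood was kept (10998.0; the next 10991.7), and values with a posterior of at least 0.95 were used. Placements that put array 6's lost spot elsewhere than probe 4146 reached at most 10615.2. This step was not part of the planned design in detail. It was also run on simulated columns, with a result not given here. Those columns took their losses and correlations from the placement itself, so they cannot show that the real columns were placed rightly. Pairs of probes of one gene (1159 pairs) correlated at 0.113, against 0.016 and 0.00047 when names were read 1 number off. Names come from the platform annotation: 14711 of 19200 probes have 1 symbol, 6 have several and 4483 are unnamed; 14416 matched current RefSeq records.

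Gene values are means of a gene's probes. Genes with at least 4 arrays and 2 per orientation were fitted with limma 3.58.1 (R 4.3.3; lmFit, eBayes) with channel orientation as a term; the mean weights both orientations equally, and p-values were adjusted over all genes tested. Members, gene lists and the rule for naming genes were chosen with earlier results of these data known. Values on every array are given for members that passed, the 10 Slc25a and 6 Timm or Tomm genes with the largest mean in size, and Slc25a1, Slc25a3, Slc25a4, Slc25a10, Slc25a11 and Slc25a20; Ucp1 was added after its values were seen. Alternatives were reading rows as deposited, other posteriors, a placement without the members' own spots, and the second best start (added after seeing the data). Further ones were scaled arrays, array weights, no orientation term, 1 probe per gene and genes on all 6 arrays. Each orientation was also fitted alone, and each array was left out. Several alternatives leave a gene's values unchanged, so a count of alternatives is not a count of independent checks.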

Additional observations from a re-analysis of the deposited data

Results flagged for a closer look

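In 5 of the 55 members 1 array lay far from the others by Dixon's criterion at the 95% level; chance gives about 1 in 20. Slc25a33 was at -0.33 on array 6, where its other 4 arrays were above 1. Slc25a15 was at 0.59 on array 3, and Slc25a13 at -1.31 on array 2, the only negative array of that gene. Tomm40 was at 1.32 on array 5, and Timm17b at -2.30 on array 2, the array with the widest spread (SD 0.79, against 0.42 to 0.57 on the others) and the fewest placed values. Of these genes Slc25a33 alone passed the test, and without array 6 its ratio was 1.22.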

How the results depend on the processing

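No paired analysis was possible because the arrays carry numbers 1 to 6 and the orientations share none. Reading rows as deposited gave 0 called Slc25a, Timm and Tomm, other import and transport, cell type marker and all genes, turned the Slc25a median to 0.035, and turned Slc25a17 (0.21), Slc25a22 (-0.22), Slc25a10 (-0.23), Slc25a24 (0.039), Tomm20 (-0.42), Timm29 (0.27), Timm23 (-1.20), Slc25a3 (0.10) and Slc25a11 (0.044). Array quality weights gave 5 Slc25a, 4 Timm and Tomm, 3 other import and transport, 9 marker and 978 genes in all, with a Slc25a median of -0.082. Called Slc25a genes were 2 with a posterior of at least 0.99, and 0 with no orientation term, on all 6 arrays (where Slc25a33 is not tested) and in each orientation alone. The channel 1 arrays alone gave 0 Timm and Tomm, 0 other import and transport, 2 marker and 45 genes in all, with medians of -0.078 (Slc25a) and 0.22 (Timm and Tomm). The channel 2 arrays alone gave 1, 0 and 221 (import members, other import and transport, all genes), a Slc25a median of -0.014, and positive values of Slc25a3 (0.030) and Slc25a11 (0.051). The Timm and Tomm median was 0.16 over genes on all 6 arrays. With arrays scaled to one spread the carrier called was Slc25a22 (limma's adjusted p = 0.0392) and not Slc25a33 (limma's adjusted p = 0.0538). Leaving out 1 array gave 0 to 1 called Slc25a genes, 1 to 2 Timm and Tomm, and 0 to 1 other import and transport. It gave 2 to 5 markers and 126 to 377 genes in all. Without array 2 the carrier called was Slc25a22, and Slc25a33 was not tested. Medians over the fits without 1 array were -0.0895 to -0.038 (Slc25a) and 0.011 to 0.19 (Timm and Tomm). Over the same fits Slc25a1 ranged from -0.10 (without array 3) to 0.28, Slc25a3 from -0.14 to 0.058 (without array 1) and Slc25a11 from -0.085 to 0.024 (without array 6). Single-orientation fits and those without 1 array rest on fewer arrays; the cause of these changes was not tested. No member's orientation term was called in any of these fits that included one.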
